A study of Mus musculus with 12 samples.

Results

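Cardiac muscle contracts on calcium that its sarcoplasmic reticulum (SR) releases and takes back at each beat, and 10 genes for that cycle are described here out of 52336 genes in the deposited table. They are Atp2a2, Pln, Sln, Ryr2, Casq2, Hrc, Trdn, Asph, Jph2 and Slc8a1, chosen by symbol as the calcium pump, the release channel, the plasma membrane exchanger and their regulators. The choice was made with results of these libraries known, so the values of these genes are a description and carry no test of their own. All 10 passed the filter on low values that 14996 genes passed.

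The study asked how an antioxidant given to newborn mice changes the transcripts of their cardiomyocytes with and without cardiac injury. Wild type pups had N-acetylcysteine (NAC), a thiol compound that supplies cysteine, or saline by injection on postnatal days 0 and 1. The labels call the NAC dose high, and those of every library, NAC or saline, name a buffer of 25 mM HEPES with 140 mM NaCl. On day 2 the left anterior descending artery of the heart was tied to cause a myocardial infarction (MI), or a sham operation was done, and cells were collected on day 3. The 4 groups, of 3 libraries each, are called saline sham and NAC sham for the sham operation, and saline MI and NAC MI for the infarction. All groups share the injections, an operation and the same isolation, in which ventricles of several pups were pooled and digested and the cells were enriched with a neonatal cardiomyocyte kit. The number of hearts in a pool is not given in the sources used here, and the labels name the left ventricle where the series text names whole ventricles.

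At each beat a little calcium enters through L-type channels of the surface membrane and opens ryanodine receptors (Ryr2) in the facing SR membrane, which release the stored calcium onto the myofilaments. The heart relaxes when the SERCA2 pump (Atp2a2), restrained by the small proteins phospholamban (Pln) and sarcolipin (Sln), returns calcium to the SR and the sodium-calcium exchanger (Slc8a1) moves the rest out of the cell. Calsequestrin 2 (Casq2) and the histidine-rich calcium-binding protein (Hrc) hold calcium inside the store, triadin (Trdn) and junctin (a product of Asph) tie calsequestrin to the channel, and junctophilin 2 (Jph2) holds the surface and SR membranes close together. In newborn rodents the SR and the T-tubules, the inward folds of the surface membrane, are still immature, and the exchanger is known to carry a larger part of calcium removal than in the adult heart.

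Promoter windows of 250 bases before the transcription start (RefSeq, GRCm38.p6) were matched for 6 of the 10 genes: Jph2, Casq2, Hrc, Pln, Ryr2 and Slc8a1. Atp2a2, Sln, Trdn and Asph were not matched. Jph2 had 2 windows, of which only the first listed was used. The 4 windows below belong to the exchanger, the buffer and the channel, whose group means were higher with NAC, and to Jph2, whose means were not. Each is written 5′ to 3′ on the strand of its gene. Capitals mark matches to the motifs listed after them, other than the E-box.

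Slc8a1, chr17:81738388-81738637, minus strand: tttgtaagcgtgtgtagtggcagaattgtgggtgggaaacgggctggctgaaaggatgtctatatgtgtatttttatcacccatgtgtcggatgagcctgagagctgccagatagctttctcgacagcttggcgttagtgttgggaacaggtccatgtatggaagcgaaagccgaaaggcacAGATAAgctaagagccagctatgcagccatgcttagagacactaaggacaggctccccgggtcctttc
Casq2, chr3:102086165-102086414, plus strand: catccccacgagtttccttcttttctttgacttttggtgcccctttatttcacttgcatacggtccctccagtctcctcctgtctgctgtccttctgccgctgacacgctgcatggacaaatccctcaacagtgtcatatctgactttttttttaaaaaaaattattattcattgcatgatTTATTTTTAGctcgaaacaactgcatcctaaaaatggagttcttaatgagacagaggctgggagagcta
Ryr2, chr13:12106946-12107195, minus strand: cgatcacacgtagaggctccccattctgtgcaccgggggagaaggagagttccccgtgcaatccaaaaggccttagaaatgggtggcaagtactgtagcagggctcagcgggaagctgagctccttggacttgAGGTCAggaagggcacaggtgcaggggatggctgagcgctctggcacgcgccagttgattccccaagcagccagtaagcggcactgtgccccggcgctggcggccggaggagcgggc
Jph2, chr2:163397994-163398243, minus strand: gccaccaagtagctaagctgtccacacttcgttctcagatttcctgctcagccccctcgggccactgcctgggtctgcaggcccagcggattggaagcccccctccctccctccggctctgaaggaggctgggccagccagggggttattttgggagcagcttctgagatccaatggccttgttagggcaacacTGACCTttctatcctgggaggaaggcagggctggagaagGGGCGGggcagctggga

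Both strands were searched for TATAAA, the GC box GGGCGG, the E-box CANNTG, the cardiac muscle motif CATTCC, the GATA factor motif AGATAA, the nuclear receptor motif AGGTCA, the core of the antioxidant response element (TGAC, any 3 bases, then GC), and the MEF2 and CArG motifs. No marked match overlaps another motif in these 4 windows, and the Jph2 match to AGGTCA is on the other strand, where it reads TGACCT. The MEF2 motif, bound by muscle transcription factors, was found in the Casq2 window at bases -69 to -60 from the start and in 2.919% of 32851 windows of this length. AGATAA was found in the windows of Slc8a1, at bases -68 to -63, and Pln, against 9.988% of all windows. The AGGTCA motif was in those of Jph2 and Ryr2, against 14.02%, and the GC box in those of Jph2 and Hrc, against 32.74%. TATAAA was in that of Pln, further upstream than a TATA box usually stands, against 12.37%. An E-box was in all 6 windows and in 66.22% of all windows. No match to the CArG motif (1.467% of all windows), CATTCC (12.64%) or the antioxidant response core (10.16%) was in any of the 6 windows. A match is a description of the letters and shows no binding.

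Depth was 14353842 to 25118341 reads per library after the authors' values were turned back into reads. Sln had 12 to 551 reads per library, and the other 9 genes had at least 262. Cardiomyocyte markers such as Tnnt2, Actn2 and Myh6 were abundant in all 12 libraries, as the label says, but fibroblast and endothelial markers were abundant too, so each value is that of an isolate in which fewer cardiomyocytes and less RNA per cardiomyocyte cannot be told apart. NAC sham 2 stood apart from the other NAC sham libraries: the summed value of 13 cardiomyocyte markers was 166904 there against 475414 and 477941, and that of 10 macrophage and monocyte markers was 19689 against 877 and 1205. NAC MI 2 stood apart too: its macrophage sum was 932 against 9123 and 10164 in the other NAC MI libraries, and that of 8 neutrophil markers was 971 against 5077 and 5728. The sum of 6 epicardial markers was 16043 there against 4118 and 4121, and that of 8 endothelial markers 18120 against 33410 and 44515. Mitochondrial genome transcripts took 7.65% to 30.2% of reads and globin transcripts 1.07% to 7.05%. Titles carry prefixes of unstated meaning: R207 for saline sham 1 and 2 and NAC sham 2, R219 for saline sham 3, R230 for saline MI 1 and 2 and NAC MI 3, R235 for saline MI 3 and NAC MI 1 and 2, and none for NAC sham 1 and 3. A digit before the treatment, also of unstated meaning, is 3 in the titles of NAC sham 1, NAC sham 3, saline sham 3 and NAC MI 1. It is 2 in all other titles and was not used in any fit. No prefix holds both sham and MI libraries, so the prefix and the operation cannot be told apart.

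Compared per kilobase of exon, which allows levels of different genes to be set side by side, the 10 genes fell into a higher and a lower set. Over the 12 libraries the mean level per kilobase was 5199 for Atp2a2, 1963 for Casq2, 1888 for Pln and 1196 for Jph2. It was 330 for Slc8a1, 325 for Hrc, 226 for Ryr2, 159 for Trdn, 113 for Sln and 96.8 for Asph. In each library every gene of the first 4 was above every gene of the other 6. In saline sham and NAC sham, neighbours within each set overlapped within 1 SD of their means. In saline sham the levels per kilobase were 2610 ± 298 (SD, n = 3) for Atp2a2, 1896 ± 582 for Pln, 1274 ± 408 for Jph2 and 929 ± 276 for Casq2. In NAC sham Casq2, at 2832 ± 1484, came second to Atp2a2, at 8755 ± 4751, with Pln at 2109 ± 1107 and Jph2 at 1021 ± 375. The length used is that of all annotated exons joined, which sets genes with many isoforms, such as Asph, at a low level per kilobase.

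The pump had the highest mean level per kilobase of the 10, although in saline sham 3 Pln was above it, at 2528 against 2471. Atp2a2 (ENSMUSG00000029467, chromosome 5, 122453513 to 122502225, minus strand, mm10) had normalized read counts of 14630, 17947 and 15028 in saline sham 1 to 3 and 73543, 20164 and 66008 in NAC sham 1 to 3. After MI it had 15501, 16776 and 20773 with saline and 36483, 60554 and 21997 with NAC. The 6 saline libraries thus lay in a narrow band and all 6 NAC libraries lay above those of the same operation, by little in NAC sham 2 and NAC MI 3 and by far in the other 4. The fitted difference of NAC minus saline, on the scale of log2(value + 1) used for all differences here, was 1.54 (SE 0.46) after sham surgery and 1.06 (SE 0.46) after MI.

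Its regulator phospholamban did not follow it. Pln (ENSMUSG00000038583, chromosome 10, 53337667 to 53345987, plus strand) had 3817, 4901 and 6975 in saline sham, 8382, 2439 and 6631 in NAC sham, 4265, 5351 and 3591 in saline MI and 4680, 6048 and 5412 in NAC MI. The groups overlapped after both operations, and the lowest and the highest of the 12 values were both in NAC sham. The differences were 0.02 (SE 0.38) and 0.30 (SE 0.38). Of the Pln exon bases, 59.6% are also covered on the other strand by Gm47644, a gene with a mean normalized read count of only 16.6, and the strand setting of the authors' counting is not given in the sources used here.

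Set against the pump, phospholamban transcripts were fewer with NAC. The ratio of Pln to Atp2a2, both per kilobase of exon, was 0.575, 0.602 and 1.02 in saline sham and 0.251, 0.267 and 0.221 in NAC sham, where NAC sham 2 lay with the other NAC sham libraries. After MI the ratio was 0.606, 0.703 and 0.381 with saline and 0.283, 0.220 and 0.542 with NAC, so these groups overlapped through saline MI 3 and NAC MI 3. This ratio was picked out after its values were seen and was not tested.

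**Figure D1:**
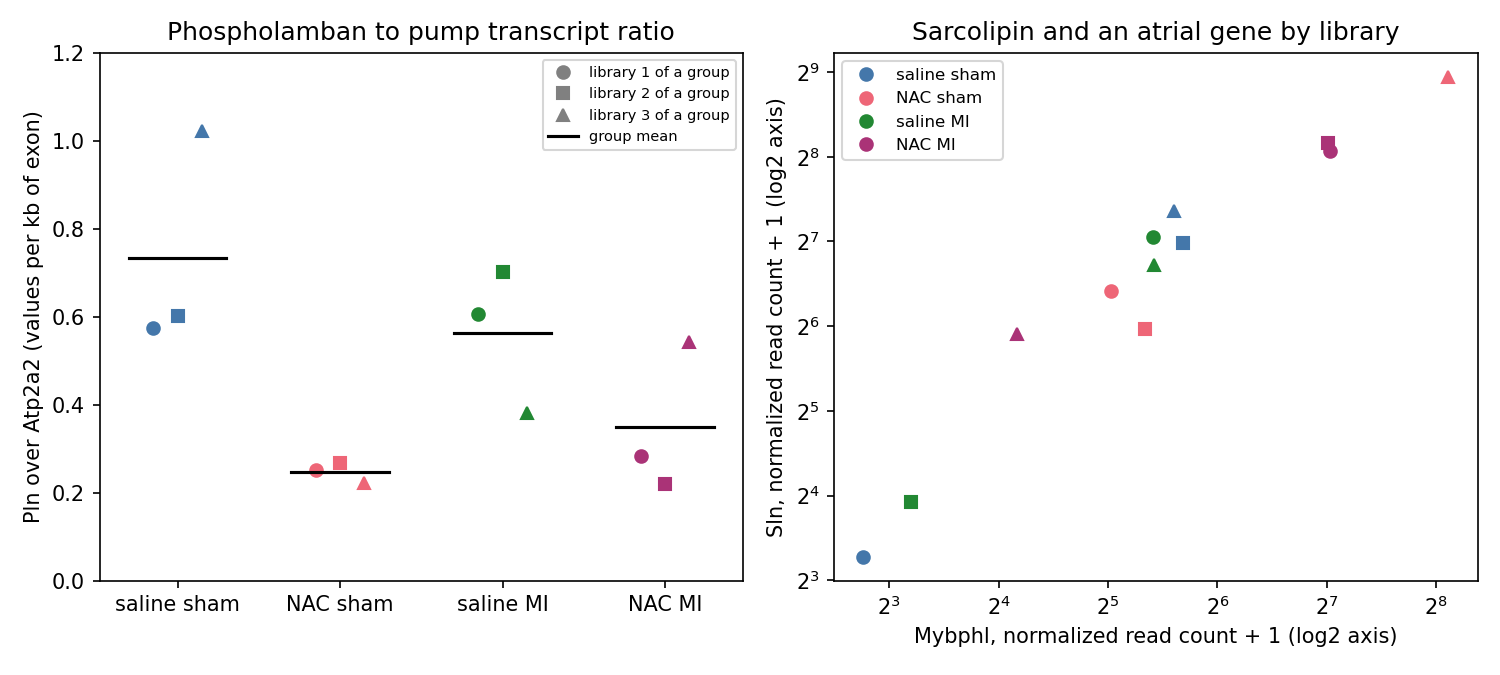
Left, ratio of Pln to Atp2a2 (normalized read counts per kilobase of exon) in each of 12 libraries by group, with the group mean as a bar. NAC sham libraries lie from 0.221 to 0.267 and saline sham libraries from 0.575 to 1.02. Right, normalized read count + 1 of Sln against that of Mybphl in the same libraries, both axes log2, coloured by group, with symbols for library 1, 2 and 3 of a group as on the left. The 2 genes are lowest in saline sham 1 and saline MI 2 and highest in NAC sham 3.

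Sarcolipin, the pump regulator that prevails in the atria, varied more than any other member. Sln (ENSMUSG00000042045, chromosome 9, 53850164 to 53854560, plus strand) had 8.70, 125 and 163 in saline sham, 84.2, 61.3 and 491 in NAC sham, 131, 14.1 and 104 in saline MI and 267, 285 and 58.8 in NAC MI. Its highest value was 56.4 times its lowest, and the groups overlapped after both operations. The difference of NAC minus saline was 1.23 (SE 1.14) after sham surgery and 1.48 (SE 1.14) after MI, and without saline sham 1 the first became -0.06.

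The genes whose values across the 12 libraries lay nearest to those of Sln were Mybphl, a myosin-binding protein of the atria, at a root-mean-square log2 distance of 0.41, Fgf12, a sodium channel partner, at 0.60, and Myl4, the atrial essential light chain, at 0.80. Mybphl and Myl4 are also in the list of 9 atrial markers, whose summed value ranged from 1899 to 3549 in saline sham, 2257 to 11680 in NAC sham, 2889 to 5387 in saline MI and 3674 to 8940 in NAC MI. Of these 9 markers 9 had a higher mean with NAC after sham surgery (median log2 difference 0.93) and 8 after MI (median 0.95), and 0 passed in limma. The part of atrial cells in the Sln values was not tested.

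The release channel paralleled the pump. Ryr2 (ENSMUSG00000021313, chromosome 13, 11553102 to 12106945, minus strand) had 5152, 4614 and 2359 in saline sham and 14176, 4116 and 13350 in NAC sham. In saline MI it had 2790, 3217 and 3768, and in NAC MI 7818, 11568 and 5039. After MI every NAC library was above every saline library, while after sham surgery NAC sham 2 lay within the saline range. The differences of NAC minus saline were 1.27 (SE 0.45) and 1.25 (SE 0.45).

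Relative to the pump, the channel was steady: per kilobase, the ratio of Ryr2 to Atp2a2 was 0.0407 to 0.0431 in NAC sham, 0.0380 to 0.0405 in saline MI and 0.0404 to 0.0484 in NAC MI, against 0.0332 to 0.0744 in saline sham. Across the 12 libraries the root-mean-square log2 distance between the centred values of Atp2a2 and Casq2 was 0.27 and that between Atp2a2 and Ryr2 was 0.29, the smallest of the 45 pairs of members.

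Of the store's buffers, Casq2 (ENSMUSG00000027861, chromosome 3, 102086415 to 102146514, plus strand) had 1866, 2401 and 3355 in saline sham and 10373, 3070 and 9798 in NAC sham. It had 3122, 2688 and 3515 in saline MI and 6181, 13532 and 4558 in NAC MI. The NAC MI libraries were all above the saline MI libraries, and NAC sham 2 again lay within the saline sham range. The differences were 1.46 (SE 0.46) and 1.23 (SE 0.46).

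Casq2 and Ryr2 kept nearly the same ratio in the NAC sham libraries, 7.70 to 7.85 per kilobase, although both were over 3 times higher in NAC sham 1 and 3 than in NAC sham 2, and the ratio spread from 3.81 to 14.97 in saline sham. Among the genes nearest to Casq2 in their values over the 12 libraries were Atp1b1, a subunit of the sodium pump, at a log2 distance of 0.17, and Sspn (sarcospan) at 0.21.

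Hrc (ENSMUSG00000038239, chromosome 7, 45335290 to 45338974, plus strand), which also slows both pump and channel through its partners, had 415, 260 and 620 in saline sham, 1819, 329 and 1755 in NAC sham, 462, 533 and 631 in saline MI and 980, 1627 and 562 in NAC MI. Its groups overlapped after both operations, through NAC sham 2 and NAC MI 3. The differences were 1.32 (SE 0.57) and 0.84 (SE 0.57).

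**Figure D2:**
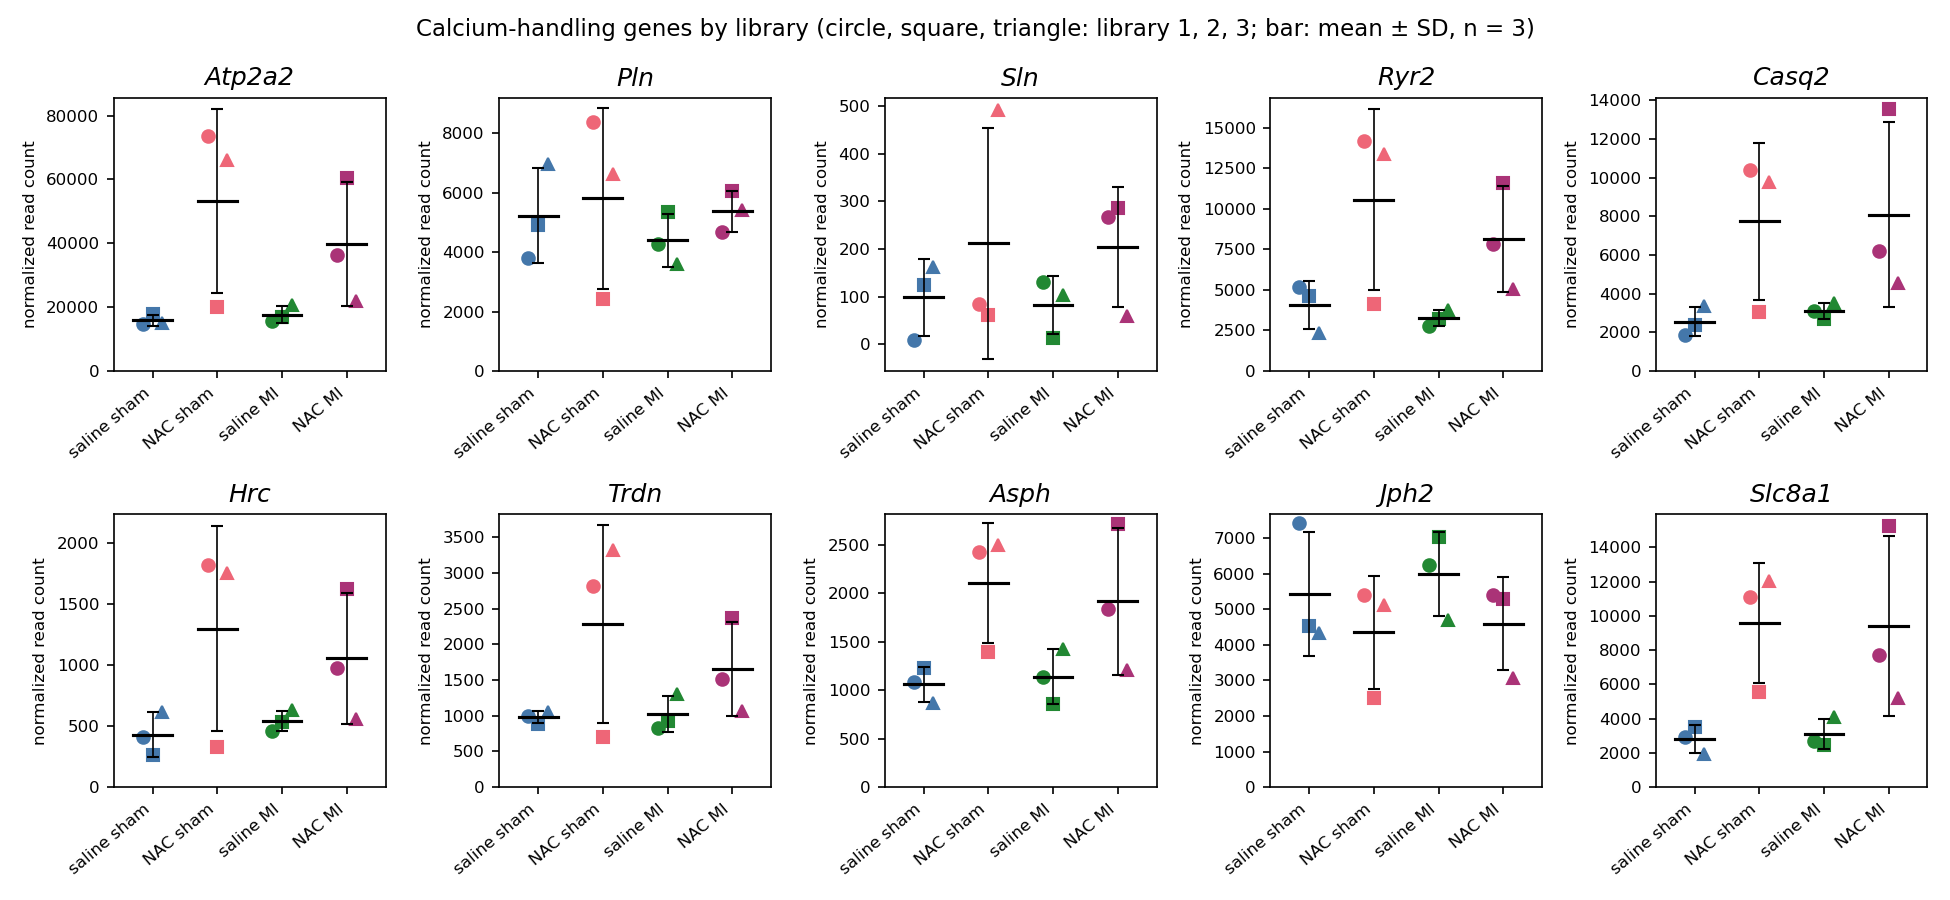
Normalized read count of each of the 10 genes in the 12 libraries, in 4 groups of 3 (circle, square and triangle for library 1, 2 and 3), with the mean and its SD. NAC sham 2, the square of the NAC sham group, lies below NAC sham 1 and 3 in all 10 panels, and Atp2a2 there is 20164 against 73543 and 66008.

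Among the junction proteins, triadin and the Asph locus had smaller differences than the channel. Trdn (ENSMUSG00000019787, chromosome 10, 33080554 to 33476709, plus strand) had 1002, 885 and 1059 in saline sham and 2815, 705 and 3326 in NAC sham, so NAC sham held both the lowest and the highest value of the 12. It had 831, 926 and 1311 in saline MI and 1510, 2371 and 1072 in NAC MI, which overlapped. The differences were 0.94 (SE 0.47) and 0.64 (SE 0.47).

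Asph (ENSMUSG00000028207, chromosome 4, 9448069 to 9669344, minus strand) encodes an aspartyl hydroxylase as well as junctin and junctate, and gene totals do not separate them. It had 1091, 1230 and 871 in saline sham and 2427, 1394 and 2499 in NAC sham, with no overlap. After MI the values were 1137, 863 and 1424 with saline and 1837, 2718 and 1205 with NAC, with overlap through NAC MI 3. The differences were 0.95 (SE 0.31) and 0.70 (SE 0.31). On the other strand Clvs1, with a mean normalized read count of 18.7, covers 14.3% of the Asph exon bases.

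Junctophilin 2 was the member with a lower mean in both NAC groups. Jph2 (ENSMUSG00000017817, chromosome 2, 163336242 to 163397993, minus strand) had 7421, 4524 and 4320 in saline sham, 5410, 2510 and 5119 in NAC sham, 6255, 7017 and 4689 in saline MI and 5412, 5295 and 3079 in NAC MI. All of these groups overlapped. The differences were -0.35 (SE 0.33) and -0.41 (SE 0.33), and without NAC sham 2 the first became 0.0024. Among the 45 pairs of members, Jph2 and Slc8a1 were 1.08 log2 units apart.

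The exchanger had the largest fitted difference of the 10 genes after both operations. Slc8a1 (ENSMUSG00000054640, chromosome 17, 81373105 to 81738377, minus strand) had 2925, 3530 and 1941 in saline sham and 11110, 5548 and 12009 in NAC sham. In saline MI it had 2693, 2476 and 4098, and in NAC MI 7739, 15260 and 5181. Every NAC library was above every saline library, not only those of its own operation, and NAC sham 2 lay above the saline range here, unlike for most members.

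The Slc8a1 difference was 1.74 (SE 0.40), or 3.33-fold, after sham surgery and 1.49 (SE 0.40), or 2.82-fold, after MI. Nearest to Slc8a1 in its values over the 12 libraries were Rnf128, a ubiquitin ligase, at a log2 distance of 0.19, Tfrc, the transferrin receptor, at 0.19, and Chrm2, the muscarinic receptor that slows the heart, at 0.22. Per kilobase the ratio of Slc8a1 to Atp2a2 was 0.0477 to 0.0638 in saline MI and 0.0686 to 0.0815 in NAC MI.

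**Figure D3:**
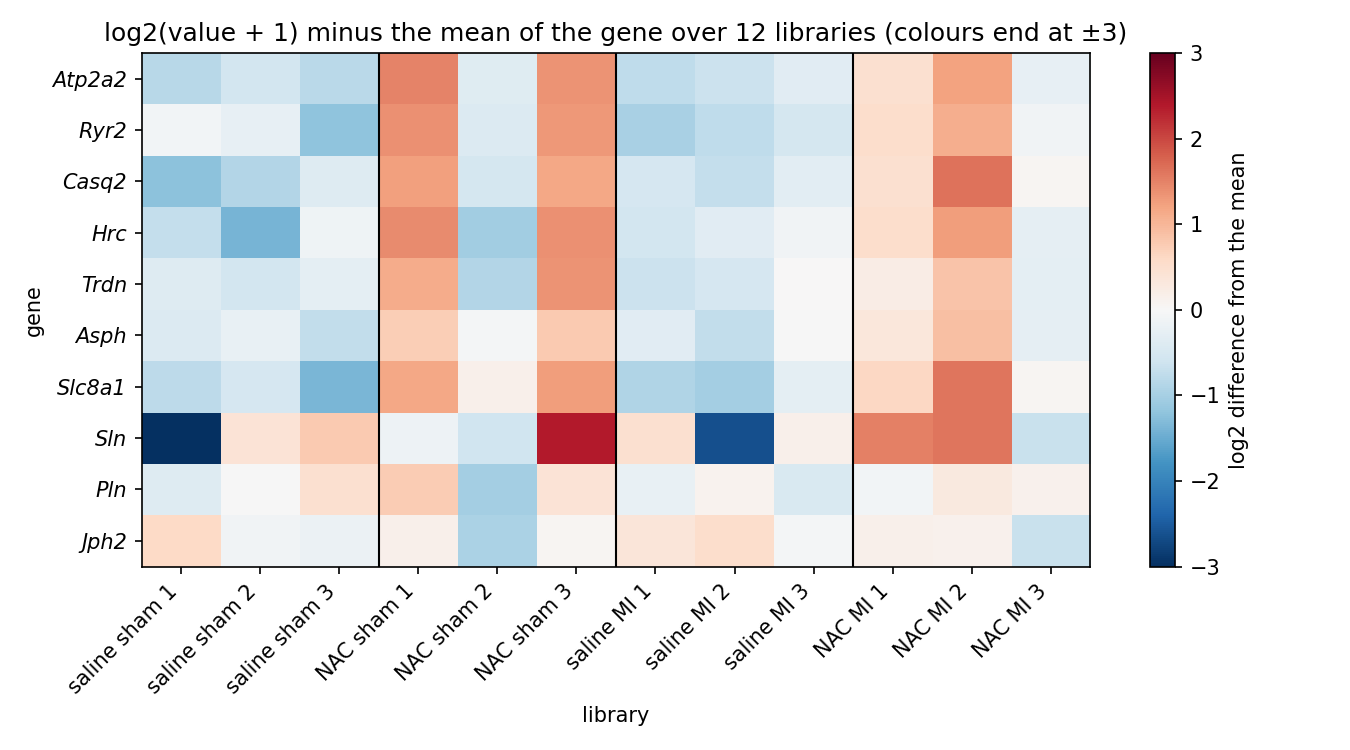
Heat map of log2(value + 1) minus the mean of each gene over 12 libraries, genes in rows and libraries in columns, with vertical lines between the 4 groups. Atp2a2, Ryr2, Casq2, Hrc, Trdn, Asph and Slc8a1 are above their means in NAC sham 1 and 3 and NAC MI 1 and 2 (Atp2a2 by 1.49, 1.34, 0.48 and 1.21), while Jph2 stays within 0.15 of its mean in those 4 libraries.

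Read together after sham surgery, 9 of 10 genes had a higher mean with NAC, where 48.2% of the genes tested did. The median difference of the 10 was 1.25, against -0.02 over all genes tested. For Atp2a2, Asph and Slc8a1 all NAC libraries were above all saline libraries (5.35% of genes tested). Limma passed 0 of the 10, with adjusted p from 0.770 to 0.995, and 0 of 14996 genes (0%), of which 884 (5.89%) had an unadjusted p under 0.05, as had 6 of the 10. EdgeR's quasi-likelihood test on the recovered reads also passed 0 genes, and DESeq2 passed 53 (0.42% of those with an adjusted p), among them Atp2a2 (log2 difference 1.75, adjusted p 0.0198) and Slc8a1 (1.77, adjusted p 0.0130).

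The count depended on NAC sham 2. Without it 6 of the 10 passed in limma, Atp2a2 at 2.14, Hrc at 2.13, Slc8a1 at 2.09, Casq2 at 2.03, Ryr2 at 1.85 and Trdn at 1.64 (adjusted p from 0.0360 to 0.0432), where 0.533% of genes passed. With saline sham 3 and NAC MI 2 also left out 7 passed (2.79% of genes), and with libraries weighted by their quality 7 passed (2.81%). With the title prefix, R207, held fixed, NAC sham 2 is set against saline sham 1 and 2 alone. Slc8a1 then differed by 0.79, Casq2 by 0.54 and Atp2a2 by 0.32, while Ryr2 stood at -0.24, Trdn at -0.42, Pln at -0.83 and Jph2 at -1.21. The other 2 NAC sham libraries have no prefix and no saline library to set against them, so for them treatment and any batch cannot be told apart.

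After MI, 9 of 10 genes again had a higher mean with NAC, where 48.1% of the genes tested did. The median difference of the 10 was 0.95 against -0.02 over all genes. All NAC MI libraries were above all saline MI libraries for Atp2a2, Ryr2, Casq2 and Slc8a1 (8.84% of genes tested). Limma passed 0 of the 10 (adjusted p from 0.529 to 0.793) and 0 of all genes (0%), with 1382 genes (9.22%) and 5 of the 10 at an unadjusted p under 0.05. EdgeR passed 0 genes and DESeq2 11 (0.0736%), none of them a member. With libraries weighted by their quality 5 of the 10 passed (4.57% of genes).

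NAC MI 2, which had the highest Atp2a2, Casq2, Ryr2 and Slc8a1 values of its group, carried part of these differences. Without it Slc8a1 stood at 1.07, Ryr2 at 0.96, Casq2 at 0.78 and Atp2a2 at 0.69. The median of the 10 was then 0.58, and their adjusted p in limma ran from 0.844 to 0.934.

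Within prefixes the NAC MI values kept their sign for all members but Jph2. In R235 (NAC MI 1 and 2 against saline MI 3) Slc8a1 differed by 1.41, Casq2 by 1.38, Ryr2 by 1.34 and Atp2a2 by 1.18, with Pln at 0.57 and Jph2 at 0.19. In R230 (NAC MI 3 against saline MI 1 and 2) Ryr2 differed by 0.75, Casq2 by 0.65 and Atp2a2 by 0.45, Slc8a1 by more than any of these, with Pln at 0.18 and Jph2 at -1.11. These contrasts have 1 library on a side and no test.

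Averaged over both operations, 9 of the 10 had a higher mean with NAC, where 47.6% of genes tested did, and 6 of the 10 had a difference above 1 on the log2 scale, where 1.71% of genes tested did: Slc8a1 at 1.62 (SE 0.28), Sln at 1.36 (SE 0.81), Casq2 at 1.34 (SE 0.32), Atp2a2 at 1.30 (SE 0.33), Ryr2 at 1.26 (SE 0.32) and Hrc at 1.08 (SE 0.40). The median of the 10 was 1.17 against -0.02. Adjusted p ran from 0.168 (Slc8a1) to 0.799 in limma, which passed 0 genes (0%), with 2327 (15.5%) and 7 of the 10 at an unadjusted p under 0.05. EdgeR passed 0 genes. DESeq2 passed 437 (3.24%), 6 of them members, and without NAC sham 2 limma passed 250 (1.67%), 7 of them members: Atp2a2, Ryr2, Casq2, Hrc, Trdn, Asph and Slc8a1. Without NAC MI 3 it passed 9 genes (0.06%), of which Slc8a1 was a member. Quality weights gave 7 of the 10 (13.5% of genes) and leaving out saline sham 3, NAC sham 2 and NAC MI 2 also gave 7 (2.19%).

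**Figure D4:**
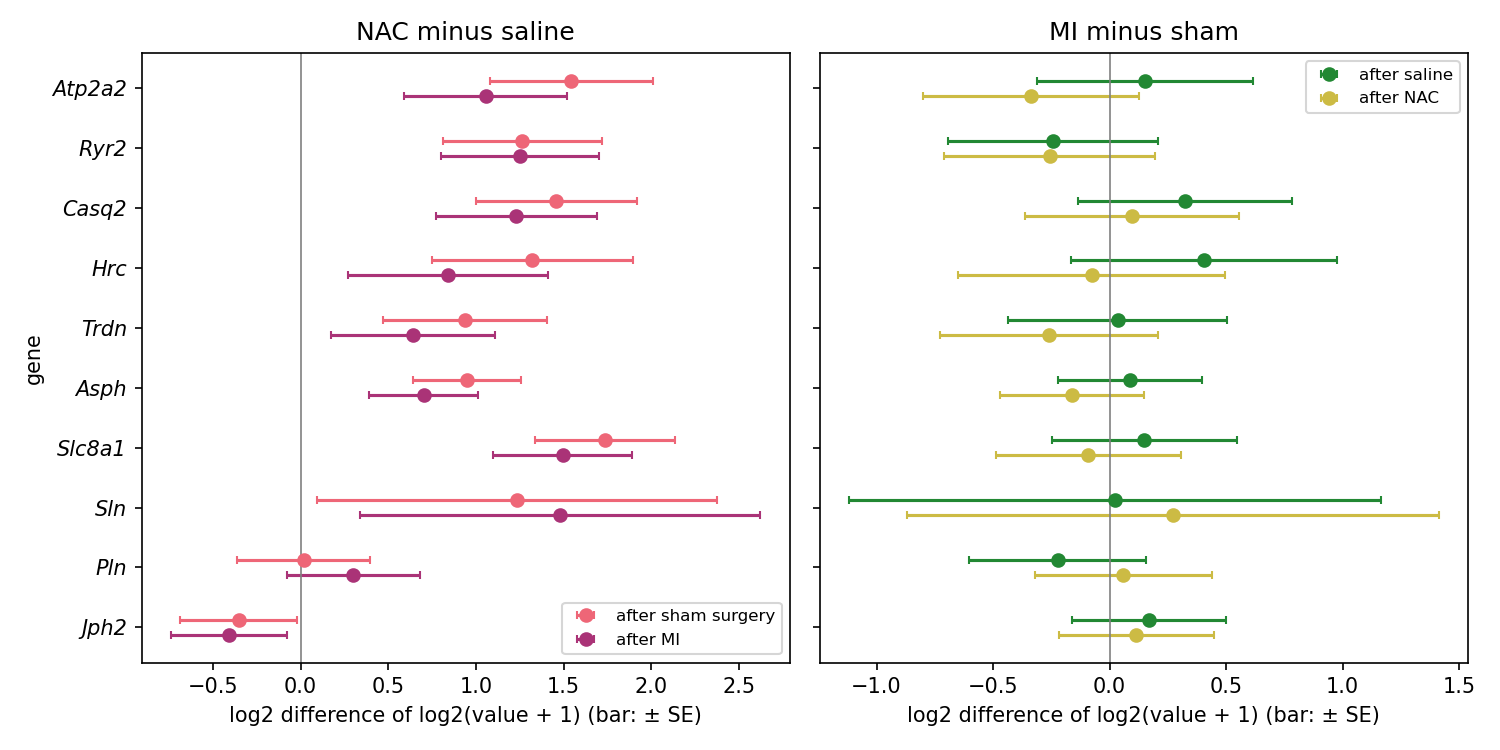
Fitted log2 difference of each gene with its SE (limma, 12 libraries). Left, NAC minus saline after sham surgery and after MI. Right, MI minus sham after saline and after NAC. On the left 8 genes lie above 0.6 in both comparisons, Pln near 0 to 0.30 and Jph2 below 0, and on the right all values lie between -0.34 and 0.40.

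The infarction comparisons showed no such values for these genes. After saline the differences of MI minus sham ran from -0.24 (Ryr2) to 0.40 (Hrc), with a median of 0.12 against -0.01 over all genes, and limma passed 0 of the 10 while it passed 129 genes (0.86%). After NAC they ran from -0.34 (Atp2a2) to 0.27 (Sln), and limma passed 19 genes (0.127%), with 0 of the 10. At an unadjusted p under 0.05 were 0 of the 10 in both of these comparisons, against 11.4% of genes after saline and 10% after NAC. EdgeR passed 0 of the 10, where 0.607% of genes passed after saline and 0.187% after NAC. DESeq2 also passed 0 of the 10, where 3.1% and 1.61% of genes passed. Averaged over treatments, 411 genes passed (2.74%) and 0 of the 10, while quality weights passed 1 of the 10 (27.9% of genes) and the fit without saline sham 3, NAC sham 2 and NAC MI 2 passed 2 (14.6%). The summed value of macrophage and monocyte markers was 605 to 909 in saline sham and 8109 to 11471 in saline MI. The MI comparison after saline and the NAC comparison after sham surgery share the saline sham libraries, and likewise each simple comparison shares a group with 2 others.

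The values after NAC depended on the libraries kept. Without saline sham 3, NAC sham 2 and NAC MI 2 together, 5 of the 10 passed as lower after MI than after sham surgery in NAC-treated pups, Atp2a2 at -1.30, Hrc at -1.27, Trdn at -1.27, Ryr2 at -1.13 and Casq2 at -0.93 (adjusted p from 0.0108 to 0.0283), where 3.83% of genes passed. The effect of NAC was not shown to differ between operations: the interaction had an adjusted p of 0.9999 for all 10 genes in limma, limma and edgeR passed 0 of all genes (0%) with 305 (2.03%) at an unadjusted p under 0.05, and DESeq2 passed 1, which was no member. The interaction values ran from -0.49 (Atp2a2) to 0.28 (Pln).

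Of the 13 cardiomyocyte markers 5 had a higher mean with NAC after sham surgery (median -0.14) and 5 after MI (median -0.14). Their summed value ranged from 234954 to 425903 in saline sham, 166904 to 477941 in NAC sham, 317090 to 460360 in saline MI and 318202 to 508589 in NAC MI. NAC sham 2 held the low value, while NAC sham 1 and 3, at 475414 and 477941, lay above all saline sham libraries. The members were high in NAC sham 1 and 3 too, so the median of the markers after sham surgery does not describe those libraries. Ttn, the giant sarcomere protein, was among the higher ones at 1.62 (SE 0.55) and 1.93 (SE 0.55), and did not pass.

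Taken relative to the mean log2 value of those 13 markers in the same library, NAC sham 2 lay near the other NAC sham libraries for Atp2a2, Pln, Ryr2 and Casq2. It lay further off for other members, such as Hrc (-4.46 against -3.59 and -3.64) and Asph (-2.39 against -3.18 and -3.13). Atp2a2 was at 1.60 ± 0.14 (SD, n = 3) in NAC sham against 0.08 ± 0.65 in saline sham, Casq2 at -1.16 ± 0.08 against -2.60 ± 0.63, and Slc8a1 at -0.75 ± 0.31 against -2.46 ± 0.86. All NAC sham libraries were above all saline sham libraries for Atp2a2, Ryr2, Casq2, Hrc, Trdn and Slc8a1, as they were for 1.89% of the genes tested. After MI this held for Atp2a2, Pln, Ryr2, Casq2 and Slc8a1 (3.57% of genes), and Jph2 was lower in all NAC MI libraries (7.98% of genes). A fit on these relative values passed 0 of the 10 in limma, and 1 (Hrc, 0.934% of genes) after sham surgery without saline sham 3, NAC sham 2 and NAC MI 2. A value relative to other genes shows unequal change only.

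**Figure D5:**
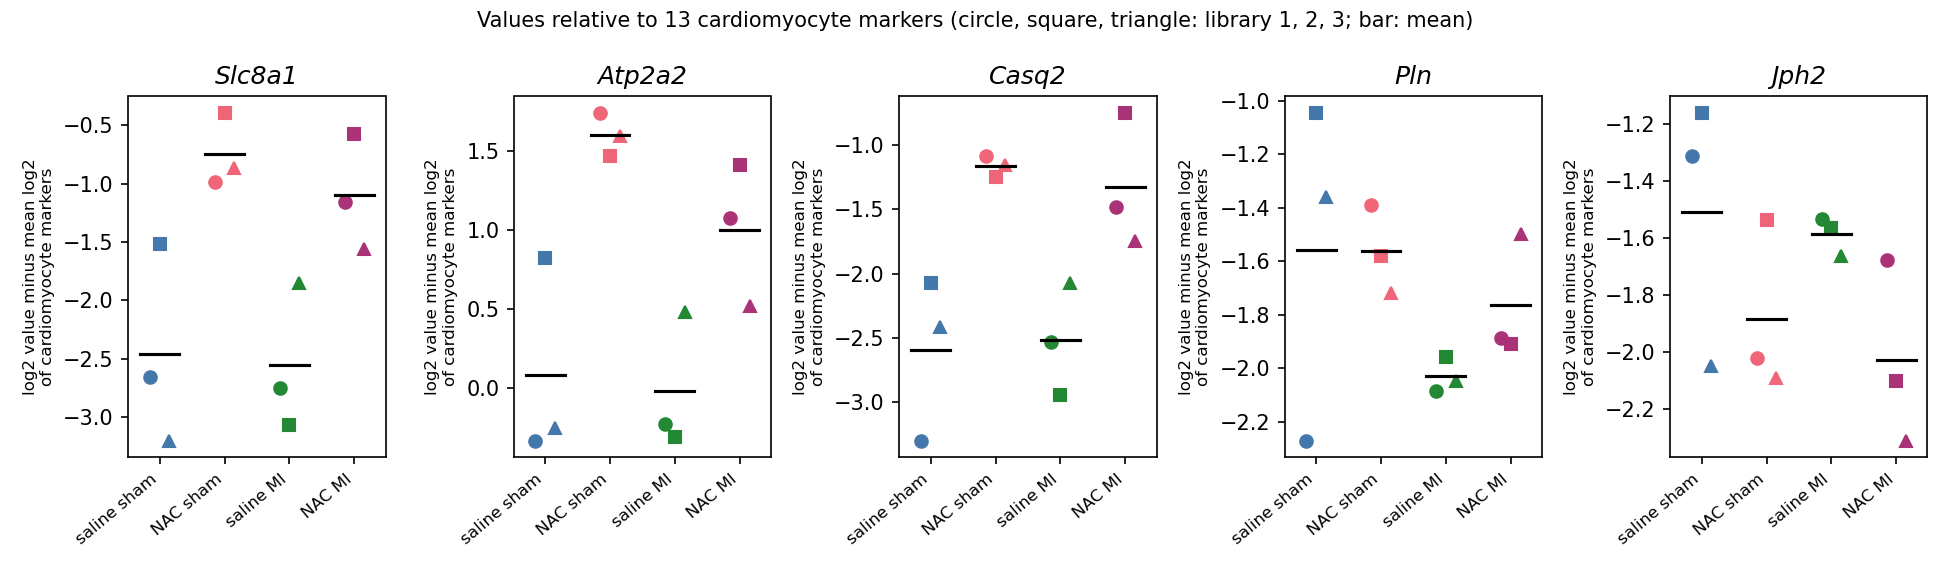
Values of Slc8a1, Atp2a2, Casq2, Pln and Jph2 minus the mean log2 value of 13 cardiomyocyte markers in the same library, by group, with a bar at the mean. The 3 NAC sham libraries of Casq2 lie from -1.25 to -1.08 and the saline sham libraries from -3.30 to -2.07, while those of Pln overlap.

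Other measures moved with the treatment, and their part in the values above was not tested. All 6 red cell genes had a lower mean with NAC after both operations (median -1.40 after sham surgery and -1.22 after MI), with a summed value of 546110 to 1396270 in saline sham against 188299 to 410415 in NAC sham, and of 875652 to 1378280 in saline MI against 264087 to 519854 in NAC MI. All 8 endothelial markers had a lower mean with NAC after sham surgery (median -0.37) and 7 of 8 after MI (median -0.53). Their summed value overlapped after both operations, at 59769 to 65923 in saline sham against 33386 to 76002 in NAC sham. It was 34691 to 44023 in saline MI against 18120 to 44515 in NAC MI. NAC sham 2 and NAC MI 3 lay above all saline libraries of the same operation. All 10 macrophage and monocyte markers had a higher mean with NAC after sham surgery (median 1.59), where NAC sham 2 held the high values, and a lower mean after MI (median -1.33), where NAC MI 2 held the low values. Long transcripts stood higher with NAC: the median difference after sham surgery was 0.22 over 2516 genes with more than 8 kb of exon and -0.17 over 767 genes with less than 1 kb. Slc8a1, Ryr2, Asph and Trdn have 18.8, 28.8, 16.1 and 9.35 kb of exon. With the trend on length removed, an alternative chosen after seeing the data, the median of the 10 was 1.08 after sham surgery and 0.89 after MI, and 0 passed.

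Further genes of the calcium cycle, taken from 4 lists, did not pass in any comparison of NAC with saline. In the list of surface channels, exchangers and T-tubule proteins, 14 of 18 tested had a higher mean with NAC after sham surgery (median 0.57) and 13 of 18 after MI (median 0.39). Cacna1c, the pore of the L-type channel that triggers release, had 1013, 813 and 658 in saline sham and 4234, 1062 and 4000 in NAC sham. Its difference was 1.68 (SE 0.51) after sham surgery and 1.11 (SE 0.51) after MI. That of Cacna2d1, a subunit of the same channel, was 1.21 (SE 0.39) and 1.19 (SE 0.39), and that of Atp1b1 was 1.26 (SE 0.38) and 1.09 (SE 0.38). The lowest adjusted p of these 3 genes in limma was 0.529 within an operation and 0.172 in the average over both.

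Of 20 other SR genes tested, 13 had a higher mean with NAC after sham surgery (median 0.12) and 11 after MI (median 0.04). Srl, the SR glycoprotein sarcalumenin, had 3513, 3872 and 3906 in saline sham, 11615, 4359 and 11263 in NAC sham, 4350, 4207 and 5268 in saline MI and 8511, 15019 and 5173 in NAC MI, and did not overlap after sham surgery. Tmem38a, a potassium channel of the SR, differed by 0.90 (SE 0.38) after sham surgery. In the list of kinases, phosphatases and adrenergic signalling, 15 of 27 tested had a higher mean after sham surgery (median 0.01) and 17 after MI (median 0.13), with Akap6, the anchor of protein kinase A at the nuclear envelope and junction, at 1.38 (SE 0.46) and 1.03 (SE 0.46) and the adenylyl cyclase Adcy6 at 0.53 (SE 0.21) after sham surgery.

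Genes of mitochondrial calcium uptake lay on the other side after sham surgery, with a higher mean for 2 of 10 (median -0.28), and were divided after MI, with 5 of 10 (median -0.06). Slc8b1, the mitochondrial sodium-calcium exchanger, differed by -0.89 (SE 0.33) after MI. None of the 10 passed in these comparisons.

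Of the listed genes described here, Rcan1 and Casq1 passed in the infarction comparison averaged over treatments. Rcan1, an inhibitor of the calcium-dependent phosphatase calcineurin, rose from 1711, 1396 and 1715 in saline sham to 2811, 2478 and 2354 in saline MI, and from 1560, 1234 and 1273 to 2230, 1988 and 2259 with NAC (averaged log2 difference 0.67, SE 0.12, limma adjusted p 0.00867). All MI libraries were above all sham libraries. Casq1, the calsequestrin of skeletal muscle, rose by 1.10 (SE 0.25, adjusted p 0.0322), from 149 to 313 in the sham libraries to 289 to 985 in the MI libraries.

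The Casq1 call was lost without saline sham 1 or 2, NAC sham 1, saline MI 1 or 3 or NAC MI 1 (adjusted p from 0.0600 to 0.105). In these fits its log2 difference was 1.03 to 1.18. With the length trend removed it was 0.95 (adjusted p 0.0623). Both calls were lost when values were centred on cardiomyocyte markers, at 0.42 for Rcan1 (adjusted p 0.709) and 0.85 for Casq1 (adjusted p 0.635), a scaling that moved the median of all genes to -0.26. Of the other genes the naming rule takes, Jsrp1, a protein of the skeletal muscle junction, differed by 1.51 (SE 0.59) after saline, and Mcub, the inhibitory subunit of the uniporter, by 1.71 (SE 0.65) after saline and 1.52 (SE 0.65) after NAC, none of which passed.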

How the data were processed

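The deposited table holds a signal per gene: per the submitters' processing notes the authors used STAR 2.7.10a, DESeq2 1.44.0 and mm10, and the values are gene reads divided by 1 factor per library. Multiplied back, 100% of values were within 0.01 of a whole number. The gene counter, annotation release and strand setting are not given in the sources used here. Identifiers were matched to GENCODE vM21 (52079 of 52336), and 21590 genes at 0 in all libraries and others with a mean under 10 were left out. Values as log2(value + 1) were fitted as 4 group means with limma 3.58.1 (trended prior, R 4.3.3) over 12 libraries (8 residual degrees of freedom, two-sided, Benjamini-Hochberg over 14996 genes, threshold 0.05), for 7 comparisons. The fit was run on simulated counts with known changes to check the code. Those counts held no shift shared by the genes of a library, so the check does not cover such shifts here. EdgeR 4.0.16 and DESeq2 1.42.0 on the recovered reads were alternatives. Separate litters are not stated, so a p-value here reflects only how far libraries of a group spread, which may be technical.

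The 10 genes and all lists (171 of 172 symbols matched) were chosen with earlier results of these data known, and no list was tested as a set. Named from the 4 pathway lists were genes that passed and the 4 with the smallest p in the 4 simple comparisons. Likeness is the root-mean-square difference of centred log2 values, given for the 3 members with the widest range. Some genes that these rules take are not reported here. Replicate numbers follow the order of deposit and pair no samples. Sequences of promoters are from RefSeq. Counting without molecular identifiers does not give independent molecules.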

Additional observations from a re-analysis of the deposited data

How the results depend on the processing

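NAC against saline after MI kept its sign for all 10 genes under all 27 alternatives, with medians of the 10 from 0.58 to 1.33. After sham surgery the median ran from 0.13 (title prefix as a term, 0 called) to 1.83, and averaged over operations from 0.38 (title prefix) to 1.52. Sln after sham surgery took the other sign without saline sham 1, Jph2 without NAC sham 2, Pln in 6 alternatives, and Ryr2 and Trdn with the prefix. Counts of the 10 genes that passed moved as follows, and the cause was not tested. With DESeq2, 2 passed after sham surgery (0.42% of genes) and 6 in the average (3.24%). With library quality weights 7 passed for NAC after sham surgery (2.81% of genes), 5 after MI (4.57%) and 7 in the average (13.5%). The same weights passed 1 (Ryr2) in the average for MI, where 27.9% of all genes passed. Without saline sham 3, NAC sham 2 and NAC MI 2 together, 7 passed for NAC after sham surgery (2.79% of genes). That fit also passed 7 in the NAC average (2.19%), 5 for MI after NAC (3.83%) and 2 in the MI average (14.6%). With the same libraries left out and values centred on cardiomyocyte markers, chosen after seeing the data, 1 (Hrc) passed after sham surgery (0.934% of genes). Leaving out 1 library at a time gave 0 to 6 after sham surgery and 0 to 7 in the NAC average, and 0 in the other 5 comparisons. Both highest counts came without NAC sham 2, where 0.533% and 1.67% of genes passed. Other pseudocounts, filters, TMM scaling, removal of the length trend and edgeR gave 0. Rcan1 and Casq1 kept their sign under all 25 alternatives for MI averaged over treatments.

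No paired analysis was possible because the labels carry no replicate number that pairs libraries across groups. The title prefix was used as a term instead, for the comparisons of NAC with saline and the interaction only. Depth limits Sln most, with 12 reads in its lowest library.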

Other observations

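Skeletal muscle counterparts of the cardiac genes were scarce in these isolates. Atp2a1, the pump of fast skeletal muscle, had 2.38 to 12.5 normalized reads per library against 14630 to 73543 for Atp2a2. Ryr1, the skeletal release channel, had 0 to 13.1 and was at 0 in saline sham 2 and 3. The skeletal pump regulator Mrln had 8 reads in all 12 libraries together and the neuronal junctophilin Jph3 had 32. Jph1, the skeletal junctophilin, had 103 to 236. Casq1 was the most abundant of these genes, with 149 to 985. Of 9 skeletal muscle markers, Myod1 and Tnnc2 were at 0 in 11 of 12 libraries each. Myog was at 0 in 8, Myh3 in 5, Actn3 in 4, and Mylpf and Myh8 in 1 each. Tnni2 (393 reads over all libraries) and Tnnt3 (251) were found in every library.

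Ryr3, the third ryanodine receptor, had 7.02, 32.4 and 84.6 in NAC sham and 37.5, 45.5 and 12.4 in NAC MI, against 10.7 to 13.1 in all 6 saline libraries. These values were picked out after they were seen and are low in reads, 303 in all.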
